A study of Mus musculus with 10 samples.

Results

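The imprinted genes described here are 37 genes known in the mouse to be expressed mainly from the allele inherited from one parent. They were chosen by name, and each of the 37 had 1 row among the 23195 genes of every type in the deposited table. From the literature on the mouse, 21 were classed as paternally expressed and 14 as maternally expressed. The other 2, *Gnas* and *Ube3a*, were put in neither class, since they depend on the transcript or the tissue. In the maternal class, *Copg2*, *Grb10*, *Ppp1r9a*, *Asb4* and *H13* also depend on tissue or isoform. Of the 37, 30 are protein coding and 7 are noncoding RNAs, and they lie on 10 chromosomes.

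The hearts were dissected at embryonic day 13.5 (E13.5) from male embryos of the strain C57BL6/J, 5 wild type and 5 homozygous for a constitutive null allele of *Nos1ap* (tm1d). This gene encodes an adaptor protein of nitric oxide synthase 1. The allele lacks exon 4 and was derived from an allele targeted in embryonic stem cells, through crosses to mice with ubiquitously expressed Flpe and Cre recombinases, so that the deletion is inherited through the germ line and is in every tissue of the null embryos. The comparison addresses whether loss of *Nos1ap* alters expression in the embryonic heart. Values in the table are mean normalized counts, 1 for each genotype, that is, read counts divided by a size factor for the depth of each library and averaged over 5 libraries. Both parents were of 1 inbred background, so the parental allele behind a read was not measured and every value is the sum of the 2 alleles.

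In an imprinted domain, DNA methylation set in the egg or the sperm marks 1 copy of a control region, and the mark is kept through the divisions of the embryo. The unmarked copy then often drives a long noncoding RNA or binds an insulator protein, which silences or frees neighbouring genes on the same chromosome. Many paternally expressed genes promote growth of the fetus, and many maternally expressed genes restrain it. *Igf2*, a growth factor, and *Igf2r*, the receptor that clears it, are the best known opposed pair.

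Marker genes and the targeted gene were examined first. All 7 cardiomyocyte markers examined had means over 1000 in both genotypes, such as *Tnnt2* at 37532 normalized counts in wild type and 37652 in null hearts. *Nos1ap* had 126 to 161 normalized counts in the wild-type libraries and 31.1 to 44.4 in the null libraries, a null mean at 27.7% of the wild-type mean (exact permutation test, two-sided, p = 0.00794, the smallest that 5 against 5 libraries can give). Depth, estimated from the size factors, was 11300000 to 14000000 read pairs on genes a library. Wild-type library 3 stood apart for nervous tissue markers. In it, the summed normalized counts of the 6 neuronal markers with counts of single libraries (of 12 listed) came to 895, against 72.4 to 93.1 in the other 4 wild-type and 79.2 to 89.5 in the 5 null libraries. Of 4 glial markers listed, *Sox10* and *Fabp7* are reported, and they summed to 248 in this library, against 18.3 to 23.2 and 21.1 to 29.7. It was also highest for the 2 skeletal muscle markers with counts, at 31.6 against 2.61 to 5.81 and 3.60 to 11.8, and for 3 markers listed for lung epithelium, at 190.3 against 120 to 165 and 123 to 151. Most of this last sum is *Krt8* (wild-type mean 141), with *Epcam* at 6.15 and *Cdh1* at 5.22. The other markers listed for lung are not in it. Other lists varied in other libraries, such as 4 liver markers (15.3 to 75.5 in wild-type and 14.1 to 29.4 in null libraries) and the cartilage marker *Acan* (69.2 to 112 and 21.1 to 106). By group means, the 3 erythroid markers were higher in null hearts (log2 ratio 0.44 for *Hba-a1*, 0.40 for *Alas2*, 0.20 for *Hbb-bt*). So were the 3 epicardial markers (*Wt1* 0.18, *Tbx18* 0.11, *Upk3b* 0.08), while the 7 cardiomyocyte markers had a median of 0.02. Of these, *Wt1* alone could be tested, and it did not pass (limma, adjusted p 0.998). The others lack counts of single libraries in both genotypes, so whether a single library carries their ratios is not known. The part of these cells in the means of the imprinted genes was not tested. Libraries are numbered within a genotype from the largest to the smallest size factor. Their counts were derived from the digits of the group means, and these numbers are not those of the sample labels.

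Imprinted genes made up 3.03% of all normalized counts of the table in wild type and 2.97% in null hearts. The noncoding RNA *H19* ranked 3 by mean among all genes of the table, with a mean of 126702 normalized counts in wild type and 123924 in null hearts. *Igf2*, transcribed from the other parental copy of the same domain on chromosome 7, ranked 5 by mean, with 96228 and 96520. Per kilobase of exon, which allows genes to be compared, the wild-type means were 51505 for *H19*, 16814 for *Igf2*, 8839 for *Mest*, 4293 for the cell cycle inhibitor *Cdkn1c*, 2423 for *Igf2r* and 2201 for *Grb10*, an adaptor that dampens insulin and IGF signalling. *Gnas*, which encodes a G protein subunit, followed at 1619.6 and the zinc finger gene *Plagl1* at 1350.1. At the other end were *Dio3*, which inactivates thyroid hormone, at 1.23, *Phlda2*, a restrainer of placental growth, at 2.48, *Slc22a18* at 4.66, *Nap1l5* at 5.47 and *Magel2* at 6.29.

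**Figure D1:**
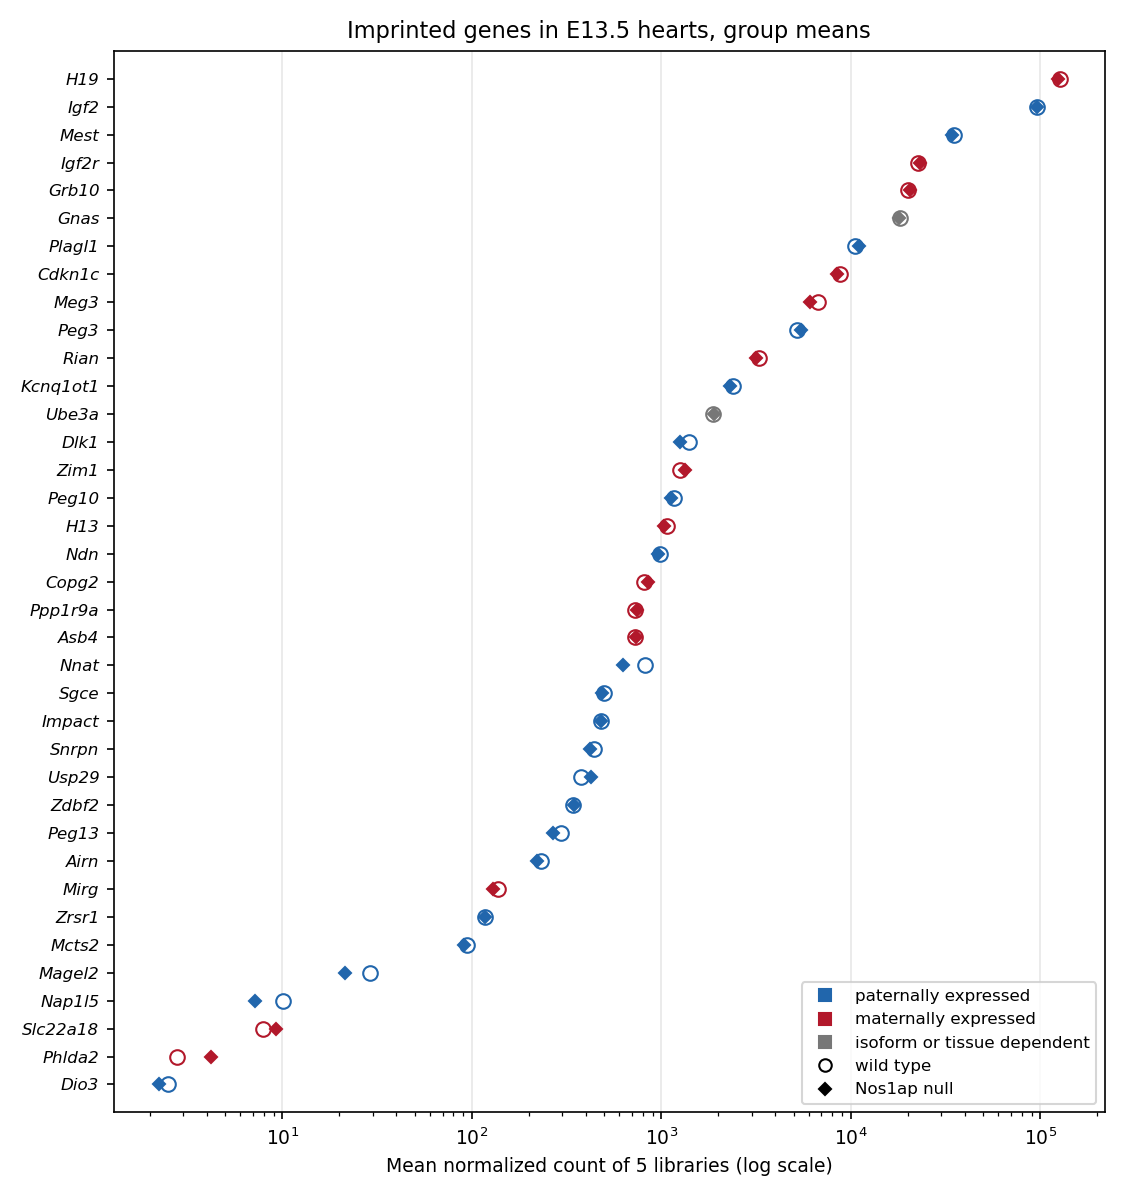
Mean normalized count of each of the 37 imprinted genes on a log axis, in wild-type (open circles) and *Nos1ap* null hearts (filled diamonds), coloured by the parental copy that is expressed. The means run from 2.23 normalized counts (*Dio3*, null) to 126702 (*H19*, wild type), and the symbols of the 2 genotypes overlap for most genes. No error is shown, since 19 of the 37 have group means only.

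The genotypes were compared on all members at once through the ratio of their deposited group means. Of the 33 members with a mean of at least 10 normalized counts, 14 were higher and 19 lower in null hearts, with a median log2 ratio of -0.03, beside a median of -0.0013 over the 14330 genes of the table at that minimum. Among paternally expressed members, 7 were higher and 12 lower (median log2 ratio -0.03, range -0.44 to 0.17). Among maternally expressed members, 6 were higher and 6 lower (median -0.01, range -0.14 to 0.09). These medians have no test. With no minimum mean they were -0.05 and 0.02, and the maternal median was -0.05 over the 7 members that do not depend on tissue or isoform, so neither the size nor, for the maternal class, the sign was stable.

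Of the 17 members with a mean of at least 1000, 15 had a log2 ratio within 0.1 of 0 and 2, *Meg3* and *Dlk1*, lay beyond it. Over all genes of that abundance, 4.42% lay beyond it. The median absolute log2 ratio was 0.051 for these members and 0.029 for all genes of that abundance, a difference that was not tested. *H19* differed by a log2 ratio of -0.03, *Igf2* by 0.0044, *Mest* by -0.03, *Igf2r* by 0.03, *Grb10* by 0.04, *Gnas* by -0.0065 and *Plagl1* by 0.07. For these 7 genes, counts of single libraries could not be settled and no test was made here.

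**Figure D2:**
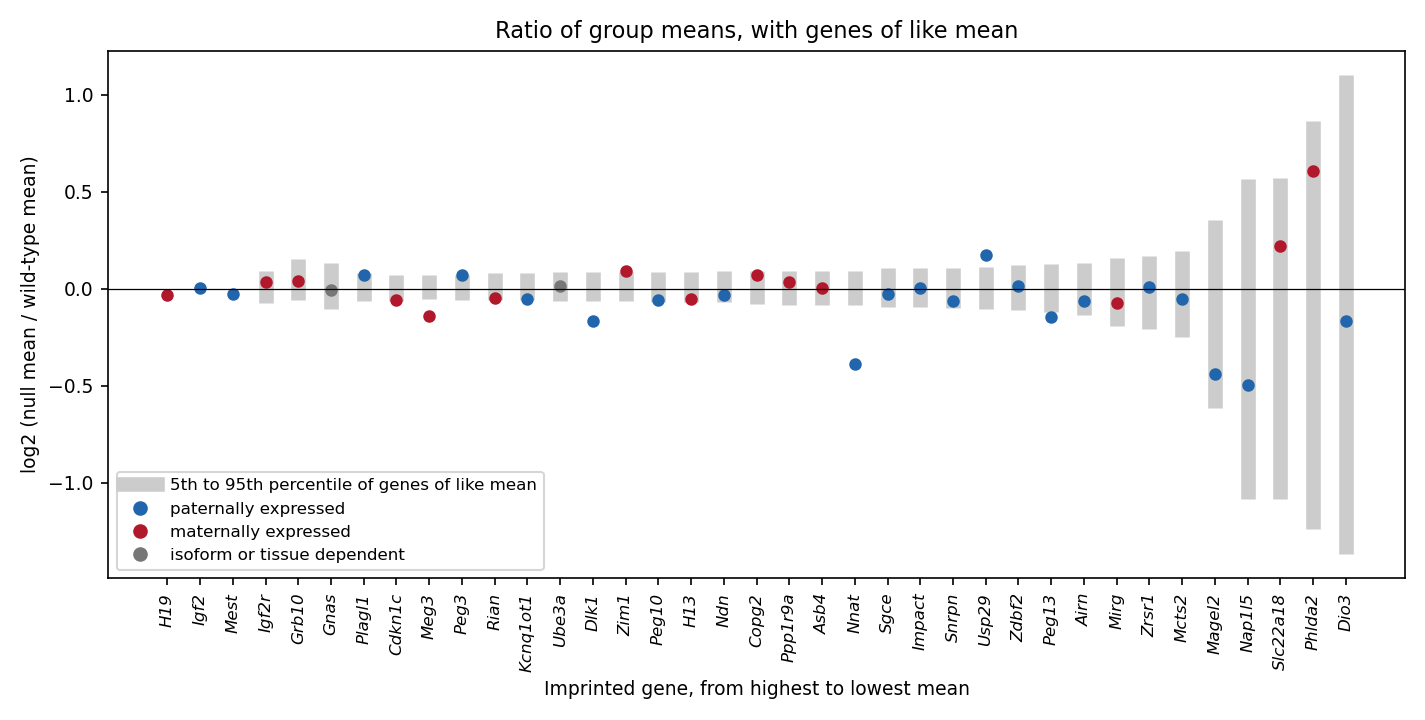
Log2 ratio of the null to the wild-type group mean for each of the 37 imprinted genes, ordered from the highest to the lowest mean. Grey bars give the 5th to 95th percentile of the same ratio over genes of the table with a mean within 1.5 times (drawn where there are at least 20 such genes, which leaves out *H19*, *Igf2* and *Mest*). *Nnat*, *Dlk1*, *Meg3* and *Peg13* lie below their bars, *Usp29* and *Zim1* above, and the other 28 within.

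Against genes of like mean, 6 of the 34 members that could be placed (17.6%) lay outside the 5th to 95th percentile of the log2 ratio. By definition this range leaves 5% of the genes of like mean on each side, and the share of members was not tested. *Nnat*, which encodes a small membrane protein of the brain and of endocrine cells, had the largest ratio for its abundance. Its mean was 823 normalized counts in wild type and 629 in null hearts, a log2 ratio of -0.39, larger in size than that of 99.8% of 2898 genes of like mean. The null libraries ranged from 579 to 702. No set of counts could be settled for the wild-type libraries, but any set that gives their mean has an SD of at least 208, a coefficient of variation of at least 25.2%, against 9.01% in the null libraries. How the wild-type libraries differed among themselves is not known. *Nnat* lies at chr2:157560078-157562522 inside the gene *Blcap*, which runs on the opposite strand and had 358 and 355 normalized counts.

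Genes of the *Dlk1-Meg3* domain on chromosome 12 were all lower in null hearts by their means, 5 of 5. Over all genes of the table with a mean of at least 10, 7258 of 14330 were lower. The members fall into 18 domains, the 5 genes include *Dio3* near the floor, and no domain was tested as a whole. The *Dlk1-Meg3* domain holds *Dlk1*, a transmembrane regulator of growth and adipocyte differentiation expressed from the paternal copy, and the noncoding RNAs *Meg3*, *Rian* and *Mirg*, expressed from the maternal copy. The mean of *Meg3* (chr12:109541001-109571726) was 6698 normalized counts in wild type and 6069 in null hearts, a log2 ratio of -0.14, larger in size than 99.6% of 255 genes of like mean. *Dlk1* (chr12:109452823-109463336) had 1400.3 and 1249, a log2 ratio of -0.17, larger than 99% of 1975 genes. Neither gene has settled counts of single libraries in both genotypes, and neither was tested. Any counts that give the null mean of *Dlk1* have an SD of at least 117 normalized counts, and those of *Meg3* have an SD of at least 136 in wild type and 144 in null hearts, so both spreads may be larger than these bounds. *Rian*, which hosts many small nucleolar RNAs, had 3278 and 3173 (log2 ratio -0.05).

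*Mirg*, a host of many microRNAs at the distal end of the domain, had counts of single libraries. In wild-type libraries 1 to 5 it had 144, 111, 164, 148 and 117 normalized counts, and in null libraries 1 to 5 it had 135, 133, 137, 122 and 121. The null libraries all lay within the wild-type range, and wild-type library 3 was the highest of the 10 (log2 fold change -0.06 ± 0.10 SE by limma, 95% interval -0.28 to 0.15). Without wild-type library 3 the log2 ratio of the means was -0.0023. *Dio3*, at the far end of the domain, had 4.35, 0.968, 3.05, 2.06 and 2.07 in the wild-type and 1.80, 3.02, 2.02, 2.15 and 2.18 in the null libraries. These are a few reads a library, at which depth a difference was not detectable.

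In the *Peg3* domain on chromosome 7, 3 of 3 members were higher in null hearts, as were 49.4% of all genes with a mean of at least 10. *Peg3* and *Usp29*, which encode a zinc finger protein and a deubiquitinase, are expressed from the paternal copy, and *Zim1*, another zinc finger gene, from the maternal copy. *Peg3* had 5179 and 5434 normalized counts (log2 ratio 0.07), and *Zim1* 1249.9 and 1332 (log2 ratio 0.09). The starts of *Peg3* and *Usp29* lie 164 bp apart on opposite strands. The window of 300 bases around the start of *Usp29*, which holds both starts, is shown for that reason, from RefSeq on GRCm38.p6 at chr7:6730333-6730632, plus strand. Capitals mark its 17 CpG dinucleotides, the sites of the methylation that marks the silent copy.
Usp29: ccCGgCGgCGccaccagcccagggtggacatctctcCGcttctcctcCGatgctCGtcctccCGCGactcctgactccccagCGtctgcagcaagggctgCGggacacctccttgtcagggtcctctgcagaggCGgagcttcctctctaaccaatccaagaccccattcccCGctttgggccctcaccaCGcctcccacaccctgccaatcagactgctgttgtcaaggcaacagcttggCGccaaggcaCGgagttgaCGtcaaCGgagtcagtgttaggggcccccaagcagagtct

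*Usp29* (chr7:6730578-6967219) had the smallest p of the members tested. In wild-type libraries 1 to 5 it had 435, 381, 377, 357 and 332 normalized counts. Null libraries 1 to 5 had 429, 428, 460, 421 and 386. All null libraries lay above 4 of the wild-type libraries, and wild-type library 1 lay among the null libraries. The means were 376 ± 38.1 and 425 ± 26.5 (SD, n = 5), a log2 fold change of 0.18 ± 0.07 (SE, limma on log2 of the normalized count plus 1, 95% interval 0.04 to 0.32). The unadjusted p was 0.0153 and the adjusted p over all 11283 genes fitted was 0.998, so *Usp29* did not pass the test. An exact permutation test, two-sided, on its normalized counts gave p = 0.0714. Wild-type library 3, in which nervous tissue markers were high, lay in the middle of its group for *Usp29*, and leaving it out left the log2 ratio of the means at 0.17. The locus overlaps several annotated transcripts of unsettled status on the same strand, each at 11.0 normalized counts or fewer in both genotypes.

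The limma test covered the 14 members with a mean of at least 10 and settled counts of single libraries in both genotypes. None was called at an adjusted p under 0.05, each having an adjusted p of 0.998, and 1 of the 14, *Usp29*, had an unadjusted p under 0.05. Over all 11283 genes fitted, 0.0266% were called, namely *Nos1ap*, *Gm7694* and *Mt2*, and 3.65% had an unadjusted p under 0.05. No member had libraries that did not overlap between the genotypes, where 0.789% of all genes fitted did. These values do not show that the members were equal in the 2 genotypes. The 95% intervals of the log2 fold changes reached at most 0.32 from 0 for 13 of the members and -0.92 for *Magel2*.

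**Figure D3:**
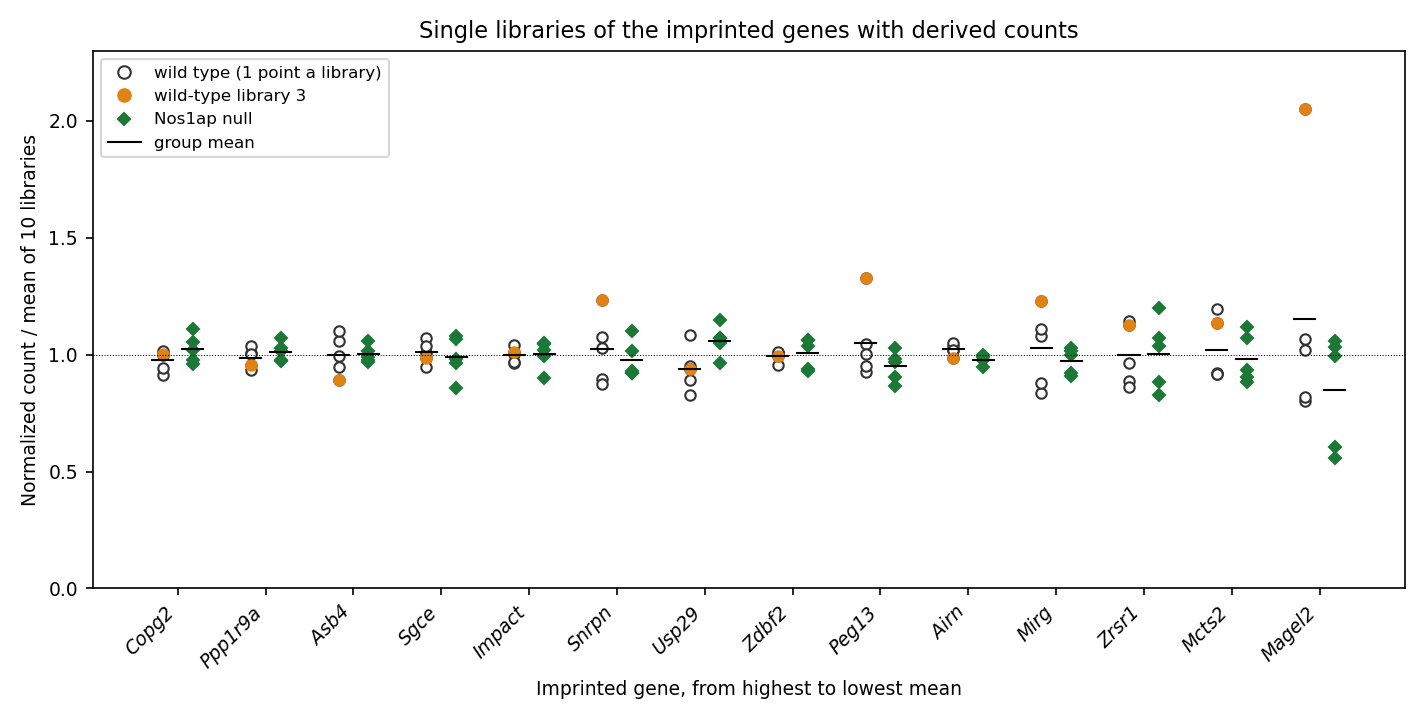
Normalized counts of single libraries divided by the mean of all 10, for the 14 imprinted genes tested by limma, from the highest to the lowest mean. Open and orange circles are wild-type libraries (orange, library 3), green diamonds are null libraries, and black lines are group means (n = 5 each). The groups overlap for all 14 genes, and wild-type library 3 is the highest of the 10 for *Snrpn*, *Peg13*, *Mirg* and *Magel2*.

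*Airn*, the antisense RNA that silences *Igf2r* on the paternal copy (chr17:12741311-12860136, plus strand), had the least spread. Wild-type libraries 1 to 5 had 234, 230.4, 222, 236 and 229.7 normalized counts, and null libraries 1 to 5 had 223, 220.2, 214, 220.1 and 225. Wild-type library 3 alone lay within the null range, and the other 4 lay above all null libraries. The means were 230.5 ± 5.50 and 221 ± 4.41 (SD, n = 5), and an exact permutation test, two-sided, gave p = 0.0238. Only 0.0377% of 2655 genes of like mean had a smaller SD of log2 values within genotypes, and the exact p rests on this small spread. Of the 14 members fitted, 1 had an exact permutation p under 0.05, against 4.22% of all genes fitted. The small spread of *Airn* was singled out after its values were seen. In limma, which moderates the spread of each gene by that of genes of like level, the log2 fold change was -0.06 ± 0.06 with an unadjusted p of 0.307. *Airn* overlaps *Igf2r* on the opposite strand, which was far more abundant, with 22557 and 23083. The library kit marks strand and the counting used it, but the share of reads given to the wrong strand is not known.

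Genes of the *Snrpn-Ndn* domain on chromosome 7, known as the region deleted in Prader-Willi syndrome, are, apart from *Ube3a*, expressed from the paternal copy and best known from neurons. *Snrpn*, which encodes a splicing protein, had 462, 385, 531, 443 and 377 normalized counts in wild-type libraries 1 to 5. Its null libraries had 437, 474, 396, 401 and 396, all within the wild-type range. *Magel2*, a regulator of protein trafficking, had 27.0, 20.3, 51.9, 25.8 and 20.7 in the wild-type and 15.3, 14.1, 25.2, 26.8 and 26.1 in the null libraries. Wild-type library 3 was again the highest of the 10 for both genes, at 1.28 and 2.21 times the mean of the other 4 wild-type libraries. The log2 fold change of *Magel2*, -0.38 ± 0.26 (SE, limma, unadjusted p = 0.152), became -0.16 without that library, and that of *Snrpn*, -0.06 ± 0.09, became 0.02. *Snrpn* overlaps *Snurf* (means 14.3 in wild type and 20.8 in null hearts) and *Gm38393* (11.2 and 13.4) on the same strand. The division of reads between these genes is uncertain.

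*Ndn*, a growth suppressor of postmitotic neurons, had 986 and 964 normalized counts. Its null libraries ranged from 931 to 998. The nearest set of counts for the wild-type libraries, less certain than the others since by chance 0.0202 further sets would lie as close, gives 971, 887, 1140.0, 969 and 961, with library 3 highest. Nearest sets of other members in the wild-type libraries, with at most 0.0272 further sets so close, were mixed. Among the wild-type libraries, library 3 was highest for *H13* (1121) and lowest for *Kcnq1ot1* (2330). It lay within the range of the others for *Dlk1* (1360) and *Ube3a* (1855). The start windows of *Magel2* and *Ndn* are shown because library 3 was highest for *Magel2* and, in the nearest set, for *Ndn*. They lie at chr7:62376729-62377028 and chr7:62348027-62348326 (RefSeq, GRCm38.p6, plus strand), with 10 and 11 CpG dinucleotides in capitals.
Magel2: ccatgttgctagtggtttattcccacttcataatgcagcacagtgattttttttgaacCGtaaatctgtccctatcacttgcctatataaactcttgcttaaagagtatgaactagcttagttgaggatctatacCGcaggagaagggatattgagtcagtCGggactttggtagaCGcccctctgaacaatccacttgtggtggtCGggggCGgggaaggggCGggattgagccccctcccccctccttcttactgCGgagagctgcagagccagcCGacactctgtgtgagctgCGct
Ndn: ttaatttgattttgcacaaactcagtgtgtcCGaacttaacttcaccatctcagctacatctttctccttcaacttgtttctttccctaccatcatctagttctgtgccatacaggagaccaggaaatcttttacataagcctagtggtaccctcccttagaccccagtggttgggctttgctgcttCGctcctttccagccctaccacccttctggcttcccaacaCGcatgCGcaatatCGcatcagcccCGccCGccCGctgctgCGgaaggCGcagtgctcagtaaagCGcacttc

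*Ube3a*, a ubiquitin ligase of the same domain that neurons express from the maternal copy and most other cells from both, had 1865 and 1886 normalized counts (log2 ratio 0.02). Its nearest sets, with at most 0.0157 further sets so close, span 1784 to 1928 in wild-type libraries and 1814 to 1940 in null libraries. The search takes the set nearest to equal expression, which favours an even spread, so these sets cannot show whether a library of *Ube3a* stood apart.

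*Peg13* and *Nap1l5*, single-exon genes that lie within other genes and are known from brain, had the same library on top. *Peg13*, a noncoding RNA within *Trappc9* on the same strand (chr15:72805600-72810324), had 260, 293, 374, 267 and 281 normalized counts in the wild-type libraries. The null libraries had 276, 243, 272, 255 and 289 (log2 fold change -0.13 ± 0.08 SE, limma, unadjusted p = 0.130). The other 4 wild-type libraries overlapped the null libraries, and without library 3 the log2 fold change was -0.05. *Nap1l5*, a retrogene related to nucleosome assembly proteins within *Herc3*, had 6.09, 11.6, 21.4, 6.19 and 5.17 in the wild-type and 5.40, 9.05, 4.03, 8.59 and 8.71 in the null libraries. Its wild-type library 3 stood at 2.94 times the mean of the other 4, and without it the log2 ratio of the means went from -0.50 to -0.02. The start window of *Nap1l5*, at chr6:58907077-58907376 on the minus strand, has 17 CpG dinucleotides and is shown as that of the gene with the highest ratio in library 3.
Nap1l5: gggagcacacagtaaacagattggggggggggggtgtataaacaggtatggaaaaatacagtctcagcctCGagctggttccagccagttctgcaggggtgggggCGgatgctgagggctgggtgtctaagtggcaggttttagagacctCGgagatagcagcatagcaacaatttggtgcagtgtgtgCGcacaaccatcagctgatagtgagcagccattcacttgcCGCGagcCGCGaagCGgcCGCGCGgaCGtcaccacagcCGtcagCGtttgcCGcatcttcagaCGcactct

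Of the 14 members tested, 4 (28.6%) had their highest value in wild-type library 3, against 14.8% of all genes fitted. The 6 neuronal markers were at 10.7 times the mean of the other wild-type libraries in it, and the 2 skeletal muscle markers at 8.07 times. In bulk tissue, more cells of a type and more RNA in each cannot be told apart. The part of nervous or other tissue in the values of *Magel2*, *Nap1l5*, *Peg13*, *Snrpn*, *Mirg* and *Ndn* was not tested. Nor was it for *Nnat*, whose value in wild-type library 3 is not known. The other 10 members tested had their highest value in other libraries, 3 of them in null library 5.

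**Figure D4:**
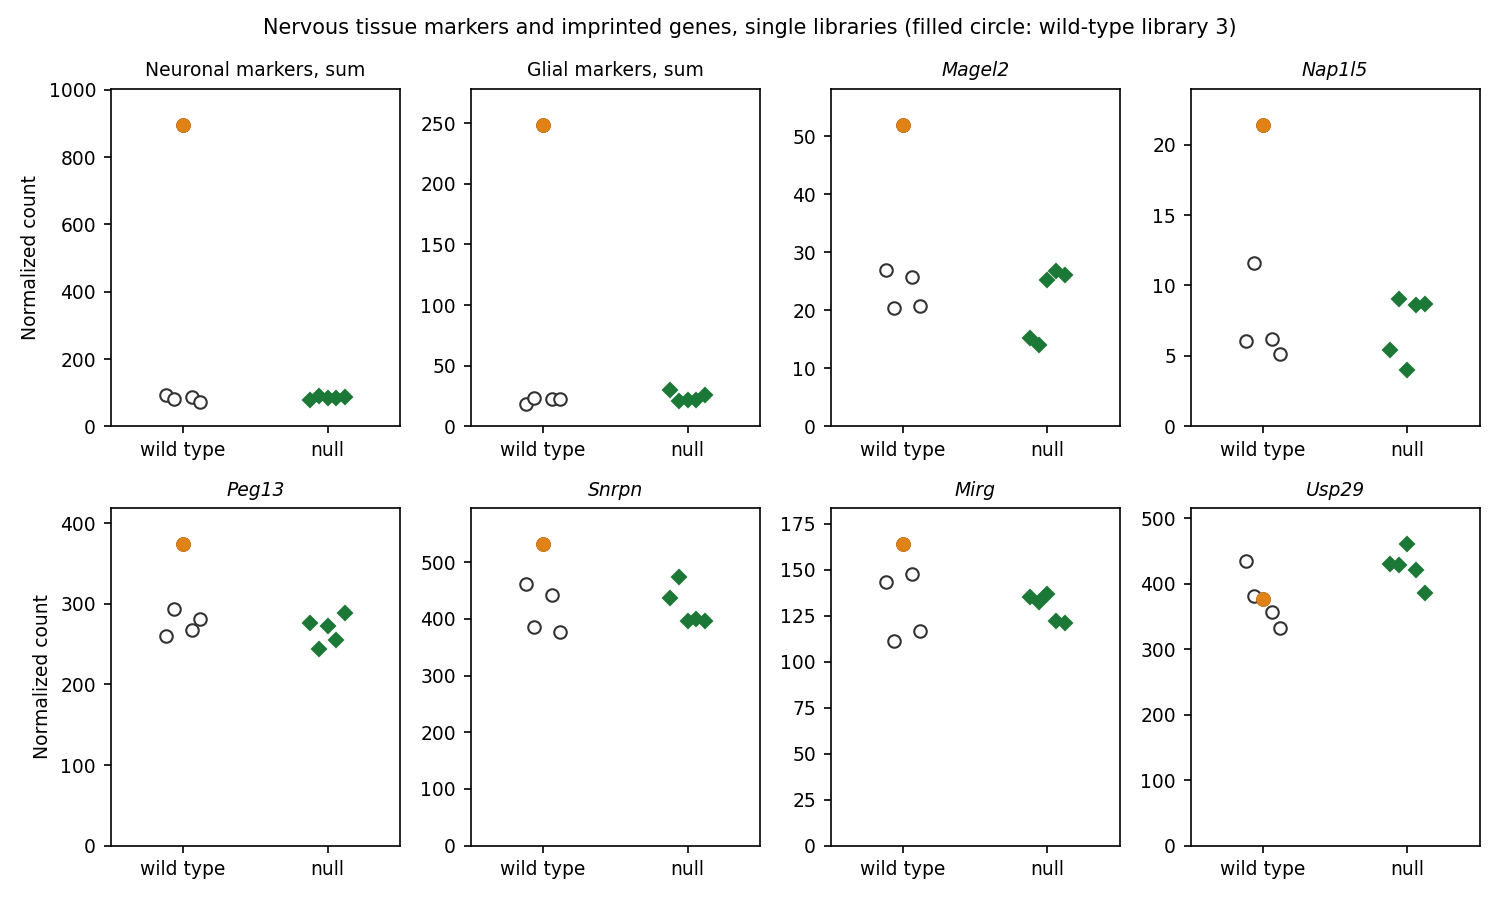
Normalized counts of single libraries for the sums of 6 neuronal and 2 glial markers and for 6 imprinted genes, in wild-type (circles) and null hearts (diamonds), on linear axes that start at 0. The filled circle is wild-type library 3, which is at 895 for the neuronal sum where the other 9 libraries are at 72.4 to 93.1, and which is highest for *Magel2*, *Nap1l5*, *Peg13*, *Snrpn* and *Mirg* but not for *Usp29*.

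Sequence of the promoters was described for the 31 members with a start window in the set of RefSeq promoters used. They have 47 windows of 300 bases between them (250 before and 50 after a start). *H19*, *Cdkn1c*, *Peg10*, *Sgce*, *Peg13* and *Impact* had no window in that set, so the shares below leave them out. The median window held 14 CpG dinucleotides, against 7 over all 32851 windows. The hexamer TGCCGC, bound by the imprint-keeping factor ZFP57 when methylated, was searched on both strands. It occurred in 13 of the 47 windows (27.7%) and in 11.6% of all windows. Some windows of a gene overlap, as for *Mest*. By gene, 12 of the 31 members (38.7%) and 13.1% of all genes had it in at least 1 window, the members having more windows each. *Nap1l5* had 2 matches in its window, and the windows of *Usp29*, *Magel2* and *Ndn* had none. CpG and hexamer overlap in sequence, since the hexamer holds a CpG, so the 2 shares are not independent.

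The retrogenes *Zrsr1* and *Mcts2*, expressed from the paternal copy, varied between libraries within both genotypes. *Zrsr1*, a splicing factor gene within *Commd1*, had 104, 113, 132, 134 and 101 normalized counts in the wild-type libraries and 97.2, 141, 104, 126 and 122 in the null libraries. *Mcts2*, within *H13*, had 110.5, 85.2, 105, 84.6 and 84.8 in the wild-type and 86.4, 83.5, 98.8, 103 and 81.7 in the null libraries. Both groups overlapped over most of their range, with log2 fold changes of 0.0066 ± 0.11 and -0.05 ± 0.11 (SE, limma). Their source genes *Zrsr2* (360.2 and 357) and *Mcts1* (184 and 182) are near copies, so the division of reads between each retrogene and its source is uncertain. *H13*, a signal peptide peptidase whose transcripts end before or after *Mcts2* depending on the parental copy, had 1071 and 1034 (log2 ratio -0.05), and its nearest sets range from 1011 to 1121 and from 994 to 1066.

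In the *Mest-Copg2* domain, *Mest*, a paternally expressed gene of mesoderm, had 34868 and 34193 normalized counts. *Copg2*, a coat protein gene whose 3′ end overlaps it on the other strand, had 757, 828, 830, 782 and 842 in the wild-type libraries and 872, 794, 811, 920.3 and 845 in the null libraries. The groups overlapped, with a log2 fold change of 0.07 ± 0.05 (SE, limma, unadjusted p = 0.145). In the *Peg10-Sgce* domain, *Peg10*, derived from a retrotransposon and needed for the placenta, had 1167 and 1120.4. *Sgce*, a sarcoglycan gene transcribed away from it, had 494, 526, 485, 464 and 508 in the wild-type and 482, 421, 523, 474 and 529 in the null libraries. Null libraries spread below and above the wild-type range. The neighbours *Ppp1r9a* and *Asb4* are classed as maternally expressed, depending on tissue or isoform. They had means of 722 ± 29.7 and 740.4 ± 29.5, and of 729 ± 61.2 and 732 ± 25.6 (SD, n = 5 each), differences smaller than the spread of the libraries. *Ppp1r9a* had 738, 757, 699, 732 and 684 in the wild-type libraries. Its null libraries had 716, 743, 710, 751 and 783. *Asb4* had 727, 772, 651, 690 and 804 in the wild-type libraries. Its null libraries had 742, 709, 772, 715 and 722. Wild-type library 3 was the lowest of all libraries for *Asb4*. Without it the log2 fold change of *Asb4* by limma went from 0.0092 to -0.030.

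In the *Kcnq1ot1* domain, the noncoding RNA *Kcnq1ot1*, which silences its neighbours on the paternal copy, had 2386 and 2297 normalized counts (log2 ratio -0.05), and its target *Cdkn1c* had 8754 and 8407 (log2 ratio -0.06). Both lay within the range of genes of like mean. *Phlda2* had 7.83, 1.94, 1.02, 1.03 and 2.07 in the wild-type and 2.70, 7.04, 7.06, 3.22 and 1.09 in the null libraries. *Slc22a18*, a transporter gene, had 5.22, 10.6, 3.05, 8.26 and 12.4 in the wild-type and 7.20, 5.03, 10.1, 14.0 and 9.80 in the null libraries. These 2 genes and *Dio3* had 1 to 13 reads a library, and their groups overlapped. The remaining paternally expressed genes had close means. *Impact*, a regulator of translation, had 478 ± 15.2 and 480.5 ± 29.1, and *Zdbf2*, a growth-promoting gene, had 341 ± 8.11 and 345 ± 22.7 (SD, n = 5).

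Genes that act on or beside imprinting were examined from 4 lists. Of 19 listed regulators of imprints in the table, 9 could be tested by limma, and 0 passed (smallest unadjusted p 0.175, *Smchd1*, log2 fold change 0.07 ± 0.05, followed by *Tet1*, 0.07 ± 0.06). *Zfp57* had 666 and 661 normalized counts and *Dnmt1*, which copies methylation after replication, 2862 and 2902. Of 16 genes of the insulin-like growth factor pathway, 3 could be tested and 0 passed. The median log2 ratio of the group means over the 16 was 0.03. *Igf1r*, the receptor through which IGF2 signals, had 2035 and 2039, and *Irs2*, an adaptor below it, had a log2 fold change of 0.10 ± 0.08. Of 40 further genes reported as imprinted in some tissue, 23 could be tested and 0 passed, the smallest unadjusted p being 0.120 for *Tssc4* (-0.10 ± 0.06), 0.148 for *Inpp5f* (-0.14 ± 0.09), 0.174 for *Qpct* (0.12 ± 0.08) and 0.213 for *Atp10a* (0.16 ± 0.12). Over the 30 of them with a mean of at least 10, the median log2 ratio of the group means was 0.045, against -0.03 for the members. *Bcl2l1*, which could not be tested, had 624 and 733 normalized counts (log2 ratio of the means 0.23). All log2 fold changes in this paragraph are null minus wild type by limma, with SE.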

How the data were processed

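The samples were poly-A RNA-seq libraries of E13.5 hearts, 5 wild type and 5 *Nos1ap* null, grouped by their titles. Per the submitters' processing notes and the methods of the study, the authors checked reads with FastQC 0.11.5, trimmed them with Trimmomatic 0.36, aligned them with STAR within RSEM 1.2.31 to GENCODE release M10 on GRCm38 with the strand taken into account, and compared counts per gene with DESeq 1.24.0. The signal values deposited by the authors are the mean normalized count of each genotype. The further columns of the authors' comparison (a fold change, its logarithm, a p-value and an adjusted p-value) were not used. The number of columns of single-sample values left out was 0.

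Group means are printed to 15 significant digits. Size factors were read from the smallest means, and for each mean under 1000 the whole counts of 5 libraries that give it to the last digit were searched in a reduced lattice. A set was taken as settled where by chance no more than 0.01 further sets would lie as close to equal expression, as held for 98.8% of wild-type and 99.1% of null means under 1000. Genes that vary widely between libraries are thereby left out more often. Settled counts divided by the size factors were tested, as log2 of the normalized count plus 1, with limma 3.58.1 in R 4.3.3 (trended, robust empirical Bayes), for all 11283 genes of any type with a mean of at least 10, with Benjamini-Hochberg adjustment. Both steps were tested on simulated data. For single members, all 252 ways to arrange the 10 libraries as 5 and 5 were enumerated in an exact permutation test, two-sided, and 18 members had settled counts in both genotypes. P-values measure the spread between these samples, since the labels do not say whether embryos shared a litter. Positions and exon lengths are from GENCODE M21 on GRCm38.

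The members, the gene lists and the parental classes were chosen with earlier results of these data known. Libraries are given singly for members with an unadjusted p under 0.05, the 5 largest fold changes, the 5 largest spreads, or a place in one of 6 domains. *Nap1l5* and the nearest sets of *Ndn*, *Ube3a*, *H13*, *Dlk1* and *Kcnq1ot1* were added after their values were seen. *Airn* was narrowly among the 5 largest fold changes by limma (-0.0630, with *Mirg* next at -0.0623). Its small spread was singled out after its values were seen. Some listed marker genes are not reported here and were left out of the sums, which changes their size. Alternatives changed the pseudocount, the minimum mean, the form of limma, the scaling, the gene types and the libraries.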

Additional observations from a re-analysis of the deposited data

Results flagged for a closer look

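Of the 36 groups of 5 libraries examined, 3 held a library far from the other 4, by the gap to its nearest neighbour over the range of the group (critical value 0.71), where chance marks about 1 group in 20. *Magel2* was at 51.9 normalized counts in wild-type library 3, with the other 4 at 20.3 to 27.0 (gap over range 0.790), and this is the library with high neuronal and glial markers. *Phlda2* was at 7.83 in wild-type library 1, with the other 4 at 1.02 to 2.07 (0.846). *Zdbf2* was lowest in wild-type library 2, at 327, with the other 4 at 341 to 347 (0.712).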

How the results depend on the processing

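The count of members called by limma stayed at 0 under every alternative: a pseudocount of 0.5, a minimum mean of 5, of 50 or none, voom, rescaled libraries, protein-coding genes alone, and each library left out in turn (range 0 to 0). The smallest adjusted p of any member over these was 0.831, without null library 2. Leaving out that library gave 642 of the 11283 genes fitted an unadjusted limma p under 0.05, against 412 with all libraries. The count of members whose libraries did not overlap was 0, and 0 to 1 with a library left out: it was 1, *Usp29*, without wild-type library 1, and 1, *Airn*, without wild-type library 3. The less certain sets, an alternative chosen after seeing the data, left it at 0. The median log2 ratio of the group means stayed between -0.05 and -0.03 for paternally expressed members and between -0.05 and 0.02 for maternally expressed members. Fold changes of 6 of the 14 members kept their sign under every alternative, among them *Usp29* (0.13 to 0.23) and *Magel2* (-0.49 to -0.16). Leaving out single libraries turned the sign of 8 members, none of them called: *Sgce* (-0.063 to 0.019), *Impact* (-0.013 to 0.042), *Zdbf2* (-0.0078 to 0.040), *Asb4* (-0.030 to 0.045), *Mcts2* (-0.095 to 0.013), *Zrsr1* (-0.060 to 0.072), *Mirg* (-0.13 to 0.0066) and *Snrpn* (-0.11 to 0.016). No paired analysis was possible because the derived libraries carry no replicate number of the labels. The 19 members without settled counts, among them all of the most abundant, were not tested, and for most of them a lower bound on the spread is all that is known.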
